A study of Rattus norvegicus with 8 samples.

Results

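The genes described here are Pdgfra, Bcas1 and Zfp536, 3 genes known from oligodendrocyte precursors and their early differentiation. They were found by gene name in the deposited sheets of genes higher and lower in droplet-rich glia, which hold 1187 genes, and all 3 lay in the sheet of 548 lower genes. Sequenced RNA came from glia rich in lipid droplets (LD-high, 4 samples) and glia poor in them (LD-low, 4 samples). All came from cultures of the hippocampus of rats at postnatal day 0, grown with fetal bovine serum, stained with Nile red, a dye of neutral lipid, and sorted by its fluorescence. Both groups were thus stained and sorted, and no other treatment is named. The labels do not say whether the numbered samples of a group were separate cultures or animals, so the spread behind the authors' p-values may be technical.

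Oligodendrocytes are the myelin-forming glia of the central nervous system. Their precursors divide and migrate in response to platelet-derived growth factor (PDGF), which binds the receptor tyrosine kinase encoded by Pdgfra. When a precursor leaves the cycle it shuts down this receptor and passes through an early stage of differentiation, marked by Bcas1, before mature myelin is laid down. Zfp536 encodes a zinc finger protein of the brain that in mouse cells represses the neuronal differentiation driven by retinoic acid. None of these genes is restricted to the oligodendrocyte lineage: Pdgfra is also a marker of fibroblasts, and Zfp536 is also expressed in neurons.

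All 3 genes were lower in LD-high glia. Each group has 1 level per gene in the authors' deposited tables, pooled by the authors over the samples of the group, in FPKM, a unit that scales fragments to transcript length and library size. No level therefore carries an SD, no value per sample can be given, and depths per sample are unknown. The authors called a gene at a q-value, a p-value adjusted over all tested genes, below 0.05. Of the genes they tested, 4.22% (of 12981) were called lower and 4.92% higher, 9.14% in all. The sheets hold only called genes, so that a call of the members is a condition of their being found and not a result about them.

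Pdgfra, the receptor through which PDGF drives precursors to divide, was at 1.03 FPKM in LD-high glia, against 5.21 FPKM in LD-low glia, in the authors' deposited table. The LD-high level was 19.7% of the LD-low level, a log2 change of -2.34 (LD-high over LD-low, authors' q = 0.00187). The gene (ENSRNOG00000002244) lies on chromosome 14, 35527927 to 35581031, in the rn6 build. Because the RNA is of mixed cells in bulk, fewer cells that express a gene and less of its RNA per cell cannot be told apart, here or for the other genes.

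Bcas1, a gene of oligodendrocytes that are starting to make myelin, was at 3.37 FPKM in LD-high glia, against 20.7 FPKM in LD-low glia, in the authors' deposited table. Its LD-high level was 16.3% of the LD-low level, a log2 change of -2.62 (authors' q = 0.00187). Of the 3 genes it had the highest level in both groups and the largest difference in FPKM, -17.3 (LD-high minus LD-low). The gene (ENSRNOG00000012906) lies on chromosome 3, 167957994 to 168033457, in rn6.

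Zfp536, the zinc finger repressor, was at 0.249 FPKM in LD-high glia, against 2.29 FPKM in LD-low glia, in the authors' deposited table. Its LD-high level was 10.9% of the LD-low level, a log2 change of -3.20, the largest fall of the 3 genes and the one with the largest p in the test by the authors (p = 0.0025, q = 0.0332). It no longer passed at q below 0.01. The order of the falls rests on these low levels: with 1 FPKM added to every level the log2 changes were -1.40 for Zfp536, -1.62 for Pdgfra and -2.31 for Bcas1. The gene (ENSRNOG00000014163) lies on chromosome 1, 93851454 to 93949187, in rn6. No called gene has a locus that overlaps one of the 3 loci.

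**Figure D1:**
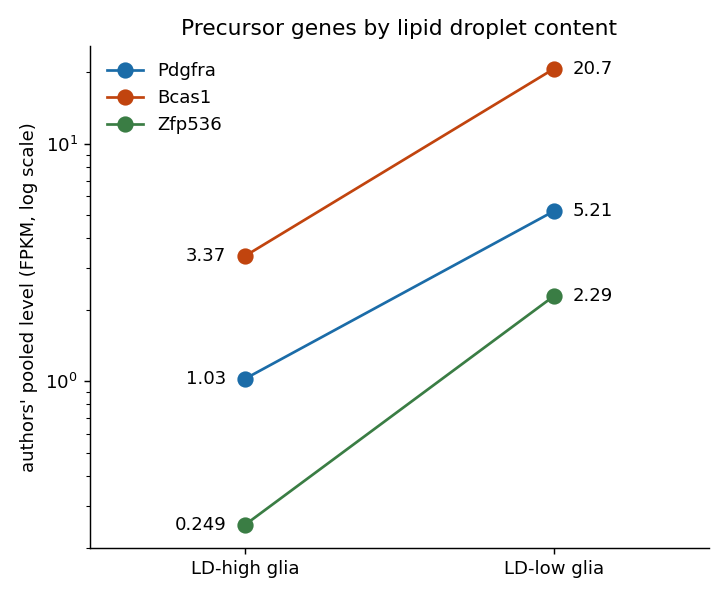
Level of each gene in FPKM (logarithmic axis) in LD-high glia on the left and LD-low glia on the right. Each point is the authors' pooled level of a group, with no error bar because no value per sample was used. All 3 lines slope the same way, and the order Bcas1, Pdgfra, Zfp536 is the same in both groups.

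FPKM is per length, so that levels of different genes can be set side by side, though only roughly. The unit is inferred and the cDNA was amplified, so the ratios given here need not be ratios of RNA amounts. In the authors' deposited table the order of levels was Bcas1, Pdgfra, Zfp536 in both groups. Bcas1 was 3.29 times Pdgfra in LD-high glia and 3.97 times Pdgfra in LD-low glia. Pdgfra was 4.11 times Zfp536 in LD-high glia and 2.28 times in LD-low glia. The log2 changes of Bcas1 and Pdgfra differed by -0.27 and those of Pdgfra and Zfp536 by 0.85 (first minus second). With pooled levels, no error can be put on these differences, and whether the 3 genes fell unequally was not tested.

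The promoters of Pdgfra and Zfp536 are shown because these genes were lower in the same comparison. RefSeq's table of rat promoters matched 2 of the 3 members. Each is the 250 bases before the annotated start in the GRCr8 build, 5′ to 3′ on the gene's own strand. Capitals mark matches to the motifs searched. The search covered both strands. CANNTG is the E-box bound by basic helix-loop-helix factors. ACAAAG is a site of the SOX type. ACAATG is another SOX site. AGGTCA is the core element of retinoic acid receptors.
Pdgfra promoter, chr14:33408517-33408766, minus strand: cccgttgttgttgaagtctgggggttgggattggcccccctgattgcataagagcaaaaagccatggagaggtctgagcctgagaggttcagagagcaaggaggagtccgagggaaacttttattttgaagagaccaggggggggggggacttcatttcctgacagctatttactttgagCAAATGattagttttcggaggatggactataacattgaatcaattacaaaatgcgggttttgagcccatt
Zfp536 promoter, chr1:99599044-99599293, minus strand: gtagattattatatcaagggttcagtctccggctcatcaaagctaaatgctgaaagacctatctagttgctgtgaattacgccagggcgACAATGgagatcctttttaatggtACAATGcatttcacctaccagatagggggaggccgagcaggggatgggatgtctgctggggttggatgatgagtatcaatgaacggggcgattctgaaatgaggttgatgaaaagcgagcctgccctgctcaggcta

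The Pdgfra window held 1 E-box, CAAATG, which ended 65 bases before the start, and no match to the other motifs. The Zfp536 window held ACAATG at 2 places, ending 156 and 132 bases before the start, and no match to the other motifs. Among the windows of 19005 protein-coding genes, 62.8% held CANNTG and 9.29% held ACAATG. The SOX site ACAAAG was in 14.4% of them and AGGTCA in 12.3%. The motifs do not overlap in these windows, and no motif was found in both. Both windows were somewhat poorer in G and C than most, with 47.2% in Pdgfra and 48.0% in Zfp536 beside a median of 54.8%. They held 4 and 7 CpG dinucleotides in Pdgfra and Zfp536, beside a median of 9. A match of letters does not show that a factor binds there.

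The place of the 3 genes among the lower genes differed. Of the 548 lower genes, 528 had a level above 0 in both groups, with a median log2 change of -1.40. Ranked by the size of the fall, Zfp536 was number 44, Bcas1 number 79 and Pdgfra number 99 of these 528. By level in LD-high glia the order was another, with Bcas1 at number 307, Pdgfra at 449 and Zfp536 at 517 of 548. By level in LD-low glia Bcas1 stood at number 150, Pdgfra at 448 and Zfp536 at 530. Zfp536 thus belonged to the faintest of the lower genes in both groups.

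Falls can differ with level, so each gene was also set beside lower genes whose LD-low level was within 2-fold of its own, counting the gene itself. Around Zfp536 there were 67 such genes, with a median log2 change of -2.07, and 12 of them fell further. The smallest fall among the 67 was a log2 change of -1.03. Around Pdgfra there were 204 such genes with a median of -1.69, and 51 fell further. Around Bcas1 there were 252 with a median of -1.17, and 25 fell further. These medians describe called genes only, because uncalled genes have no values in the tables.

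**Figure D2:**
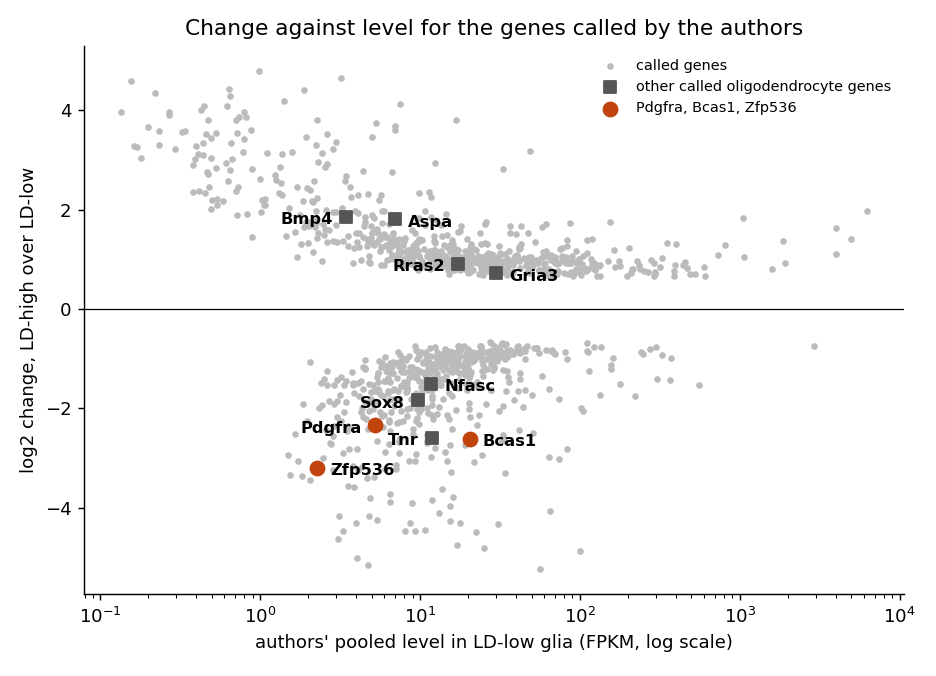
Log2 change (LD-high over LD-low) against the authors' pooled level in LD-low glia (FPKM, logarithmic axis) for the called genes above 0 in both groups. Circles are Pdgfra (-2.34), Bcas1 (-2.62) and Zfp536 (-3.20), squares are the other called oligodendrocyte genes, of which 3 lie below 0 and 4 above it.

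The authors' p-values set the 3 genes apart in another way. The smallest p-value in the authors' deposited tables is 5e-05, shared by 348 genes, 168 of them lower, and Pdgfra and Bcas1 are among these. Their place in an order of significance is therefore not resolved further. Zfp536 had p = 0.0025 in the authors' deposited table, and 445 of the 548 lower genes had a smaller p. Of the lower genes above 0 in both groups, 44 fell at least as far as Zfp536, itself included, and 23 of these had the smallest p. The 20 lower genes at 0 in LD-high glia have no fold and were left out of this count.

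**Figure D3:**
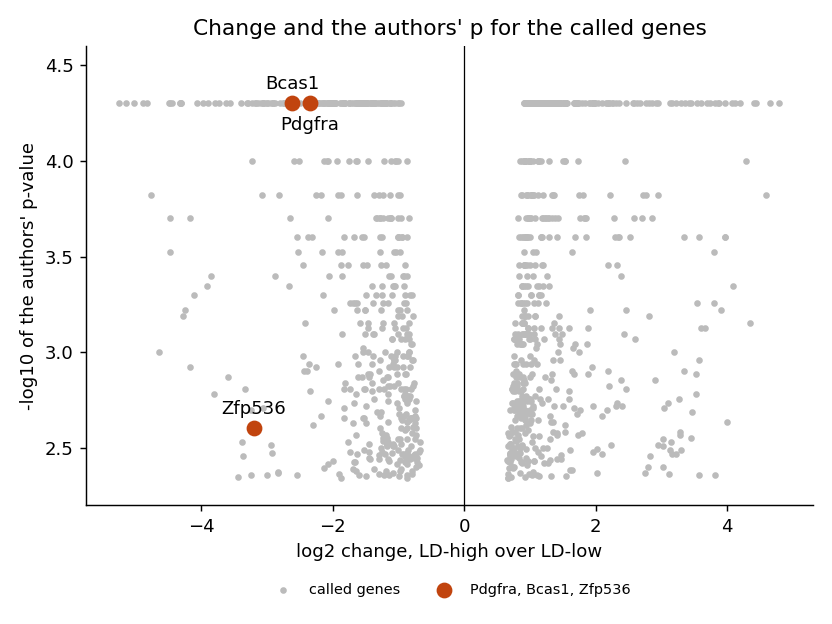
Log2 change (LD-high over LD-low) against the negative log10 of p from the authors for the called genes above 0 in both groups. Pdgfra and Bcas1 sit on the top row, the smallest p the authors deposited (5e-05), and Zfp536 sits low on the left with p = 0.0025.

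Called genes of the lineage were found in both directions. Lists of 4 kinds, for precursors, early differentiation, myelin-forming cells and lineage transcription factors, held 86 distinct symbols, of which 10 were called. Of these, 6 were lower (6.98% of the symbols, beside 4.22% of all tested genes) and 4 higher (4.65%, beside 4.92%). Without Pdgfra, Bcas1 and Zfp536, which were known to be lower when the lists were made, 3 of 83 symbols were lower (3.61%). This share is near that of all tested genes, but the 83 may include untested symbols, so the share among tested ones is not known. These counts are therefore no result about the lineage, whose other symbols have no level in the sheets.

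Among 25 precursor markers, 2 were lower (8%, beside 4.22% of all tested genes) and 1 higher (4%, beside 4.92%). The lower count includes Pdgfra, so nothing is read from it. Besides Pdgfra the lower one was Tnr, which encodes tenascin-R, a matrix glycoprotein made by oligodendrocyte lineage cells and some neurons. It was at 1.96 FPKM in LD-high glia, against 11.9 FPKM in LD-low glia, in the authors' deposited table (log2 change -2.60, q = 0.00187). Gria3, an AMPA-type glutamate receptor subunit, was higher, at 49.3 FPKM in LD-high glia, against 30.1 FPKM in LD-low glia (log2 change 0.71, q = 0.0328, authors' deposited table). Cspg4, the NG2 proteoglycan that defines precursors beside Pdgfra, was not among the called genes. Neither were Ptprz1, Olig1, Olig2 and Sox10. The level of a gene outside the sheets is not known here, nor whether the authors tested it, so the presence of precursors could not be checked against their other defining markers.

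Among 20 markers of committed and early differentiating cells, 2 were lower (10%, beside 4.22% of all tested genes) and 2 higher (10%, beside 4.92%). The lower ones were Bcas1 and Nfasc, and nothing is read from a count that includes Bcas1. Nfasc encodes neurofascin, with a glial form at the edge of the node of Ranvier and a neuronal form at the node, which a level per gene does not separate. It was at 4.13 FPKM in LD-high glia, against 11.8 FPKM in LD-low glia, in the authors' deposited table (log2 change -1.51, q = 0.00187). Bmp4, a secreted factor that holds back oligodendrocyte differentiation, was higher, at 12.4 FPKM in LD-high glia, against 3.44 FPKM in LD-low glia, in the authors' deposited table (log2 change 1.85, q = 0.00556). Rras2, a small GTPase related to Ras, was at 32.5 FPKM in LD-high glia, against 17.4 FPKM in LD-low glia (log2 change 0.90, q = 0.0266, authors' deposited table). Gpr17 and Enpp6, which mark the same stage as Bcas1, were not among the called genes.

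Of 25 markers of mature oligodendrocytes, 0 were lower (beside 4.22% of all tested genes) and 1 was higher (4%, beside 4.92%). That gene was Aspa, whose enzyme splits N-acetylaspartate and so frees acetate. It was at 24.3 FPKM in LD-high glia, against 6.97 FPKM in LD-low glia, in the authors' deposited table (log2 change 1.80, q = 0.00456). The myelin genes Mbp, Mog and Cnp were not among the called genes. Of 24 lineage transcription factors, 2 were lower (8.33%, beside 4.22%), counting Zfp536, and 0 higher, and nothing is read from this count. The one beside Zfp536 was Sox8, a SOX factor of the same group as Sox9 and Sox10, at 2.71 FPKM in LD-high glia, against 9.70 FPKM in LD-low glia (log2 change -1.84, q = 0.00187, authors' deposited table). Sox9 and Sox10 were not among the called genes, nor were Nkx2-2, Myrf and Zfp488.

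Other genes of the PDGF pathway were looked up in the same sheets. Of 7 ligand and receptor genes of the PDGF family, Pdgfra was the 1 called gene. Its main ligand in the brain, Pdgfa, and the second receptor gene, Pdgfrb, were not among the called genes. Of 26 genes for proteins that bind or relay the signal of PDGF receptors, 0 were called in the authors' Cuffdiff test. Of 18 genes of retinoic acid reception and metabolism, the signal that Zfp536 opposes in mouse cells, 0 were called in that test. Beside the 9.14% of all tested genes that were called, lists of this size would hold few called genes, so a count of 0 is no result about either pathway. The tables list no gene above q = 0.0498, so how many of these passed an unadjusted p of 0.05 is not known.

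Markers of other cell types moved in the same comparison, and their part in the fall of the 3 genes was not tested. Neuron markers were lower for 13 of 23 symbols (56.5%, beside 4.22% of all tested genes) and higher for 0. The called ones had a median log2 change of -3.62 and a range from -5.25 to -0.84. The summed level of those 13 genes was 191 FPKM in LD-high glia, against 721 FPKM in LD-low glia, in the authors' deposited table, and none was at 0 in either group. The changes of Pdgfra, Bcas1 and Zfp536 lie inside that range. So does the median of all lower genes with a fold (-1.40), so nothing is read from this. Microglia and macrophage markers were higher for 12 of 20 symbols (60%, beside 4.92% of all tested genes). The summed level of those 12 genes was 531 FPKM in LD-high glia, against 50.9 FPKM in LD-low glia, in the authors' deposited table. Astrocyte markers were higher for 3 of 20 symbols (15%, beside 4.92%), with smaller log2 changes, from 0.78 to 0.95. The summed level of those 3 genes was 87.6 FPKM in LD-high glia, against 49.0 FPKM in LD-low glia, in the authors' deposited table. Each of these sums covers only genes called in 1 direction, so its direction was fixed by the calls. The other symbols of these lists have no level in the sheets.

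Pdgfra also stands on the list of fibroblast and meningeal markers, and there it moved against the other called members. Of 18 symbols, 5 were called, beside 9.14% of all tested genes called. Foxc1, Postn, Col1a1 and Col3a1 were higher while Pdgfra was lower. Those 4 genes summed to 210 FPKM in LD-high glia, against 68.9 FPKM in LD-low glia, in the authors' deposited table. Mural cell markers were higher for 4 of 12 symbols (33.3%) and endothelial markers for 3 of 12 (25%), beside 4.92% of all tested genes. Of 13 ependymal and choroid plexus symbols 1 was lower (7.69%, beside 4.22% of all tested genes). Of 11 Schwann cell symbols 0 were called. In lists this short the ependymal and Schwann counts are no result about those cells.

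**Figure D4:**
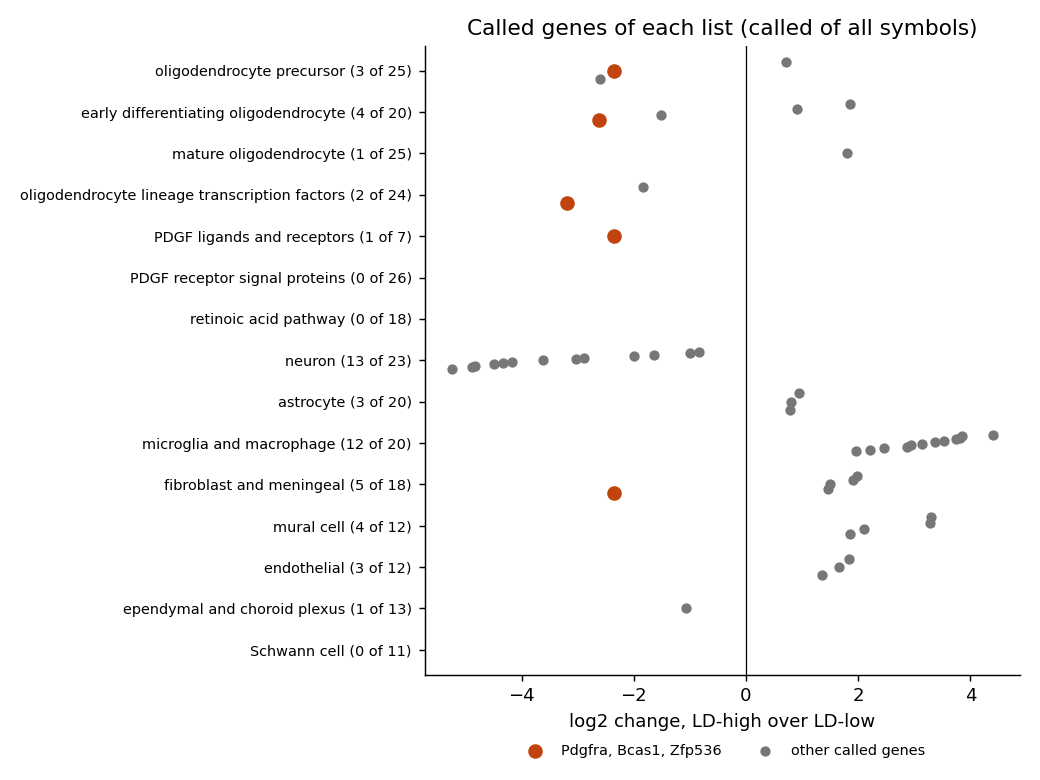
Log2 change (LD-high over LD-low) of the called genes of each list, with the number called of all symbols beside the list's name. Larger points are Pdgfra, Bcas1 and Zfp536, which lie to the left of 0, and the vertical spread within a row only separates the points. The 13 neuron markers lie left of 0 and the 12 microglia and macrophage markers right of it.

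The called genes nearest to each of the 3 genes were found by their distance in log2 level over the 2 groups, among 1086 other called genes with a symbol. Likeness over 2 pooled values is a description and says nothing of shared function. Nearest to Pdgfra were Tshz2, a zinc finger homeobox factor (distance 0.033), Brinp1 (0.131) and Gdap1, a mitochondrial outer membrane protein (0.21). Tshz2 was at 1.05 FPKM in LD-high glia, against 5.17 FPKM in LD-low glia, in the authors' deposited table, with q = 0.0322. Nearest to Bcas1 were Slc1a1, a neuronal glutamate transporter (0.249), Cnr1, the cannabinoid receptor of neurons (0.257), and Reep1 (0.395), all with q = 0.00187 in the authors' deposited table. Nearest to Zfp536 were Spire2, an actin nucleator (0.33), Atp9a, a putative phospholipid flippase (0.435), and Sv2b, a synaptic vesicle protein (0.436), with q from 0.0283 to 0.0494 in the authors' deposited table. All 9 were lower in LD-high glia.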

How the data were processed

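Reads were aligned with Bowtie2 and compared with Cuffdiff on the rn6 build, per the submitters' processing notes, which state no version. The sources used here give no annotation, strand setting or read filter. RNA was isolated with a kit for small samples and its cDNA amplified, per the labels' protocols, which can shape each level. The authors deposited 1 level per gene and group, which the headers leave without a unit and which is read here as FPKM because Cuffdiff reports FPKM. Each gene also has a deposited p-value and q-value. The number of columns per sample is 0, so no test across samples, no depth and no spread could be computed.

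The log2 change was computed as LD-high over LD-low from the deposited FPKM. The number of tests, 12981, was recovered from the deposited p and q at 91 distinct p-values, a step tested on simulated data. Of the called genes, 26 are listed at 0 in 1 group and have no fold. Starts were raised by 1 because Cuffdiff counts from 0. The members, and 15 lists of 255 distinct symbols (252 with a RefSeq entry in GRCr8), were chosen with earlier results of these data known. Named are the members, each called gene of the oligodendrocyte, PDGF and retinoic acid lists, and the 3 called genes nearest to each member. Of other cell type lists up to 4 called genes with the largest change may be named. The GO sheets were not used because they name no genes. Python 3.11.15, numpy 2.4.6, pandas 2.3.3 and matplotlib 3.10.9 were used.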

Additional observations from a re-analysis of the deposited data

How the results depend on the processing

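Alternatives were stricter q, other adjustments, a minimum change or level, a pseudocount and leaving out genes at 0. Of 63 results under an alternative, 53 kept their call or stayed within 1.5 times their count. Many of these could not have changed. A pseudocount was judged by the sign of the change alone, which it cannot reverse. A count of 0 stays 0 under a stricter filter, and a minimum level of 1 FPKM removed no called gene. The tally is therefore no measure of how robust the results are. The loss of each member's call under Bonferroni adjustment follows from that adjustment itself. The other member calls lost were of Zfp536 alone, whose p was larger than that of Pdgfra and Bcas1. When the p-values of the authors were Bonferroni adjusted over 12981 tests, the log2 changes of Pdgfra (-2.34), Bcas1 (-2.62) and Zfp536 (-3.20) did not pass (adjusted p = 0.649, 0.649 and 1), and with the smallest deposited p of 5e-05 no gene could. Zfp536 (-3.20) also failed at q below 0.01 and under Benjamini-Yekutieli adjustment of the p by the authors (adjusted p = 0.333), where Pdgfra and Bcas1 passed (0.0187 each). A pseudocount of 1 FPKM gave log2 changes of -1.62 for Pdgfra, -2.31 for Bcas1 and -1.40 for Zfp536. With a level of at least 5 FPKM in the higher group Zfp536 gave no value and 1 lineage transcription factor was lower, as at q below 0.01 (1). At q below 0.01 there were 257 lower and 297 higher genes. With a log2 change of at least 1 there were 402 higher genes. No paired analysis was possible because the deposited values are pooled per group and carry no replicate number, and for the same reason no replicate was left out. What depth limits could not be measured, since no depth per sample is known.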

Other observations

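Pdgfra has a close relative beside it on the chromosome. Kit, the receptor of stem cell factor and like Pdgfra a class III receptor tyrosine kinase, was the called gene nearest to Pdgfra on chromosome 14, 378 kb away in rn6 (35072108 to 35149610). It was at 0.474 FPKM in LD-high glia, against 2.57 FPKM in LD-low glia, in the authors' deposited table (log2 change -2.44, q = 0.0210). Its change differed little in size from that of Pdgfra (-2.34), but no test of the difference could be run. Of the 5 class III receptor genes 3 were called, 2 lower and 1 higher, beside 4.22% of all tested genes lower and 4.92% higher, and nothing is read from this count. The higher one was Csf1r, the receptor of colony stimulating factor on microglia, at 30.7 FPKM in LD-high glia, against 2.98 FPKM in LD-low glia, in the authors' deposited table (log2 change 3.37, q = 0.00187). Pdgfrb and Flt3 were not among the called genes. These genes were chosen after their values were seen.

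The called gene nearest to Bcas1 went the other way. Pfdn4, a prefoldin subunit that helps fold actin and tubulin, lies 91.2 kb away on chromosome 3 and was at 38.2 FPKM in LD-high glia, against 13.8 FPKM in LD-low glia, in the authors' deposited table (log2 change 1.46, q = 0.0164). Zfp536 had 0 called genes within 1 Mb on chromosome 1, beside 2 for Pdgfra and 1 for Bcas1. Of all tested genes 9.14% were called, but the number tested in each window is not known, so nothing is read from these counts. The second near Pdgfra, Rasl11b, a Ras-like GTPase, was higher in the authors' deposited table (log2 change 1.14, q = 0.0110).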
